A study of Rattus norvegicus with 12 samples.

Results

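The genes described here take up glucose and fructose into the liver cell, trap them and start their breakdown. They are 7 genes chosen by their role: the sugar carriers Slc2a2 and Slc2a5, the sugar kinase regulator Gckr, the fructose kinase Khk, the glycolysis regulator Pfkfb1, the liver pyruvate kinase Pklr and the glucose-sensing transcription factor Mlxipl. All probe sets that the platform annotation gives to 1 of these symbols alone were taken. This gave 8 of the 20826 probe sets with 1 rat symbol, and 7 of 14217 genes. Pklr had 2 probe sets and each of the other genes 1.

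The samples were livers of male Wistar rats, an outbred laboratory strain, 5 weeks old per the labels. All rats first had the AIN93G basal diet for 4 days. For 11 days the maple syrup group then had 20% maple syrup in that diet, and the sugar mix group 20% of a syrup made to a similar sugar composition. Of 7 rats fed maple syrup and 8 fed the sugar mix, 6 livers of each group were put on Affymetrix expression arrays, each labelled a biological replicate. Every rat was fasted for 16 hours before the liver was taken, and no fed liver and no rat on the basal diet alone was analysed here, so the levels are those of the fasted liver on a sweetened diet. The comparison asks whether maple syrup differs from its own sugars in its effect on the liver.

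The deposited value of a probe set is a score whose levels resemble log2 intensities, from 5.57 to 15.2, with quartiles of 6.78, 7.37 and 8.49 over all probe sets and arrays. Its differences between animals are far smaller than log2 intensities give, with a median standard deviation (SD) over the 12 livers of 7.14e-06. A difference between diets is therefore not a fold change here. Animal values are given below in SDs of the probe set from its mean over the 12 livers. Differences between diets are given as Hedges' g, the maple syrup mean less the sugar mix mean, in units of their pooled SD with a small-sample correction, with a 95% interval. The hepatocyte markers had a median level of 14.4, and albumin (Alb), the main plasma protein made by hepatocytes, stood at 15.2, the top of the table. Krt19, a keratin of bile duct cells, had a level of 6.87 and Vil1, the brush border protein villin, 6.91, both below the median of the table. Other markers of the same cells were brighter, with Epcam of the bile duct list at 8.02 and Fabp2 of the intestinal list at 8.95, and the list medians were 7.17 for bile duct cells and 6.95 for intestine.

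Glucose and fructose reach the hepatocyte in portal blood and cross its membrane through carriers of the GLUT family. The product of Gckr holds back the phosphorylation of glucose during fasting, and fructose is phosphorylated by ketohexokinase (Khk), which bypasses the control at phosphofructokinase. Pfkfb1 encodes an enzyme that makes or removes the main activator of phosphofructokinase, and Pklr encodes the pyruvate kinase of liver that ends glycolysis. Mlxipl encodes ChREBP, a transcription factor that is activated by sugar metabolites, pairs with Mlx and binds carbohydrate response elements, among them one in the Pklr promoter that is a classic example of its kind.

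The promoter of Pklr is shown because among the 7 genes it was the only one to hold the letters searched for as a ChREBP element. Looser forms of the element and sites outside the window given next were not searched. RefSeq promoters of the rat assembly GRCr8, from 250 bases before to 50 bases after each start, were searched on both strands for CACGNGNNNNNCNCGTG, a pair of E-box-like blocks 5 bases apart. It was found in 11 of 33469 promoter windows, or 0.0329%, and those of Nup62 and Il4i1 hold the same site. All 7 genes had a promoter in the table, in 8 windows. In the window below, chr2:176841014-176841313 on the plus strand, the capitals mark the blocks of the element at chr2:176841096-176841112, which begins 168 bases before the start.

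Pklr promoter: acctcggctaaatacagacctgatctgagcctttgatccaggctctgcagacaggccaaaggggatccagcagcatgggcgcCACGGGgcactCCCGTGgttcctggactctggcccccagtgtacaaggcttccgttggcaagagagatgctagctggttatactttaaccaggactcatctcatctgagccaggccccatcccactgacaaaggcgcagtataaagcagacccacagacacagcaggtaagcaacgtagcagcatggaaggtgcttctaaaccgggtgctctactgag

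The E-box letters CACGTG, which the element can contain, were in 6.42% of all promoter windows and in those of 0 of the 7 genes. The letters TATAAA were in 14.2% of all windows and, among the 7 genes, in that of Pklr alone. Of the other genes whose promoters hold the element letters, 6 were measured on the arrays. Their elements are printed with the blocks in capitals, to set beside that of Pklr.

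Pklr element: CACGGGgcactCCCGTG
Rgs16 element: CACGGGccgggCGCGTG
Smim7 element: CACGGGgcatgCGCGTG
Hes1 element: CACGAGccgttCGCGTG
Nup62 element: CACGAGgctgaCCCGTG
Irak1 element: CACGAGacgccCCCGTG
Fam124a element: CACGCGcgcatCCCGTG

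These lie at chr13:68438108-68438124 (Rgs16, plus strand), chr16:17308316-17308332 (Smim7, plus), chr11:84213126-84213142 (Hes1, minus), chr1:104435921-104435937 (Nup62, plus), chrX:156929830-156929846 (Irak1, minus) and chr15:40975857-40975873 (Fam124a, plus) of GRCr8. Over the 12 livers, r of these genes with Pklr was 0.27 for Rgs16, -0.10 for Smim7, -0.24 for Hes1, -0.27 for Nup62, -0.32 for Irak1 and 0.05 for Fam124a. Genes that share the letters of the Pklr element thus ran from weakly against to weakly with Pklr, as a description over 12 animals.

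No probe set of these genes passed the test between the diets (limma, Benjamini-Hochberg adjusted p of 0.05 over all 20826 probe sets), and the adjusted p was 0.9998 for each of the 8. Of all probe sets 0% passed, and the smallest adjusted p in the table was 0.627. At an unadjusted p of 0.05, 1 of the 8 passed, the brighter probe set of Pklr, against 4.19% of all probe sets (2.08% higher and 2.11% lower with maple syrup). The values of the diets overlapped in 8 of 8 probe sets, and over all probe sets 0.0912% did not overlap. In whole liver, fewer cells of a type and less RNA per cell cannot be told apart. With 6 livers a group the intervals were wide, and the lowest and highest bounds of g among the 8 probe sets were -2.0 and 2.35.

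**Figure D1:**
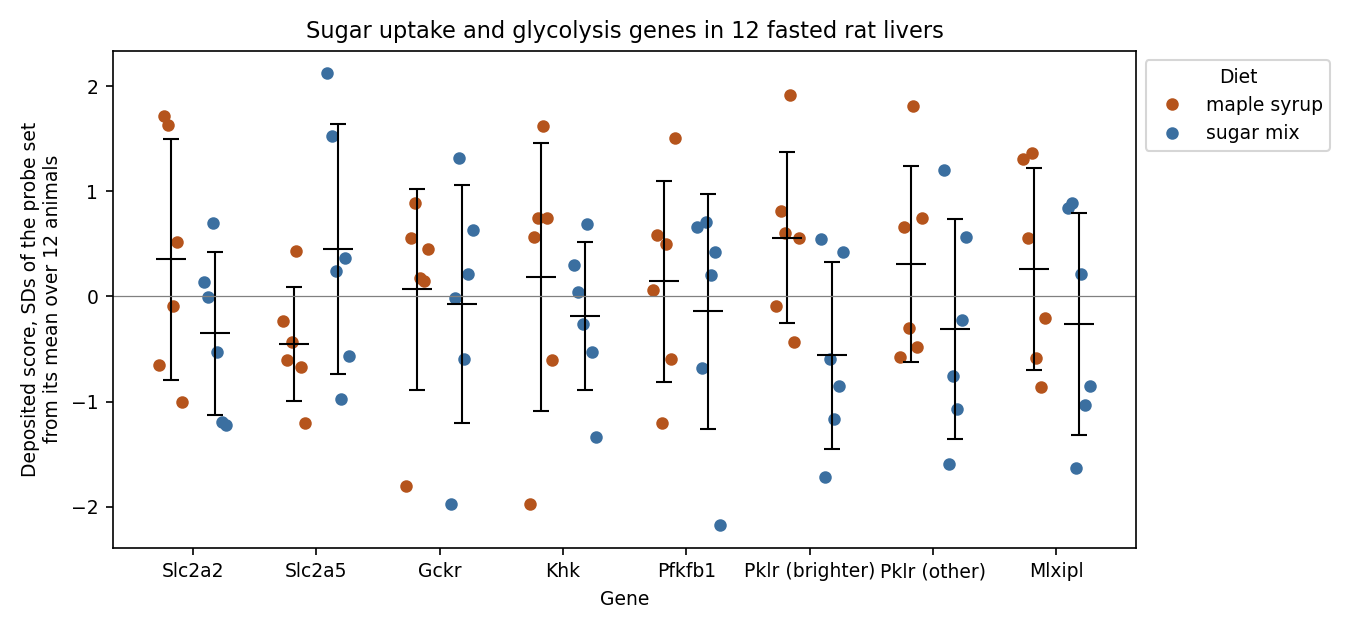
Level of each of the 8 probe sets in each liver, in SDs from the probe set's mean over the 12 livers (vertical axis), with maple syrup to the left of sugar mix; points are livers, bars the group mean and whiskers the SD. The diets overlap in all 8 probe sets, and the brighter Pklr probe set shows the widest separation, with maple syrup higher in 32 of 36 pairs of animals.

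Slc2a2 encodes GLUT2, the main glucose carrier of hepatocytes, which also carries fructose and lets glucose out during fasting (chr2:113537884-113568422, GRCr8). Its level was 11.7 with an SD of 4.81e-05, well above the upper quartile of the table. Maple syrup livers had -1.01, 0.21 and 1.71 SDs (lowest, median and highest), and sugar mix livers -1.23, -0.27 and 0.70. The highest 2 livers were maple syrup replicates 2 and 3, and the remaining livers of both diets covered the same range. Maple syrup was higher in 24 of 36 pairs of 1 animal of each diet, with g of 0.67 (95% interval -0.43 to 1.73, exact permutation p = 0.245, two-sided).

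Slc2a5 encodes GLUT5, the fructose carrier best known from the small intestine (chr5:165857412-165892928). Its level in these livers was 7.80, between the median and the upper quartile of the table. It was the only one of the 7 with a negative g. Maple syrup livers had -1.20, -0.52 and 0.43 SDs and sugar mix livers -0.98, 0.30 and 2.12 SDs. Sugar mix replicates 1 and 2 stood highest, at 2.12 and 1.53 SDs, above every maple syrup liver. The maple syrup animal was higher in 10 of 36 pairs, with g of -0.90 (-2.0 to 0.23, exact permutation p = 0.126).

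Gckr encodes a protein that restrains glucose phosphorylation in the hepatocyte (chr6:30765071-30795627), with a level of 11.2 and an SD of 2.63e-05. Maple syrup livers had -1.80, 0.31 and 0.88 SDs and sugar mix livers -1.97, 0.10 and 1.31 SDs. In each diet 1 liver, replicate 1, lay far below the rest. Outside these the maple syrup livers lay between 0.15 and 0.88 SDs and the sugar mix livers between -0.60 and 1.31 SDs, a wider range that held that of maple syrup. Over all 12 livers maple syrup was higher in 20 of 36 pairs, with g of 0.12 (-0.93 to 1.17, exact permutation p = 0.805). The sign of g turned when sugar mix replicate 1 was left out (-0.26) or maple syrup replicate 3 (-0.02).

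Khk lies 369619 bases from Gckr on the same chromosome (chr6:31165246-31175779) and encodes ketohexokinase, the first enzyme of fructose breakdown. Its level was 11.2, and its score moved little, with an SD of 1.68e-06, and 8.40% of all probe sets had a smaller SD. Maple syrup livers had -1.97, 0.65 and 1.62 SDs and sugar mix livers -1.33, -0.11 and 0.69 SDs. The maple syrup livers thus held both the lowest and the highest value. In 24 of 36 pairs maple syrup was higher, with g of 0.33 (-0.73 to 1.38, exact permutation p = 0.548). It depended on single livers, and was 0.98 without maple syrup replicate 1 and 0.08 without maple syrup replicate 4.

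Pfkfb1 (chrX:22936038-22989691) had a level of 9.10 and the widest spread of the 7 genes, with an SD of 0.0179, and 99.8% of all probe sets had a smaller SD. Whether the score of Pfkfb1 is less compressed or its RNA varies more between animals cannot be told apart in this table. Maple syrup livers had -1.21, 0.28 and 1.50 SDs and sugar mix livers -2.17, 0.32 and 0.71 SDs. The medians of the diets were close, and sugar mix replicate 6 was the lowest liver. In 19 of 36 pairs maple syrup was higher, with g of 0.25 (-0.80 to 1.30, exact permutation p = 0.658), and g was -0.14 without sugar mix replicate 6.

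Pklr, at the end of glycolysis, had the largest g of the 7 genes (chr2:176840779-176849637). Its brighter probe set had a level of 8.93 and an SD of 1.40e-04. On it maple syrup livers had -0.43, 0.58 and 1.91 SDs and sugar mix livers -1.71, -0.72 and 0.55 SDs. Most maple syrup livers lay above most sugar mix livers, with an overlap in the middle. Maple syrup was higher in 32 of 36 pairs, with g of 1.21 (0.02 to 2.35), an unadjusted limma p of 0.0395 and an exact permutation p of 0.0433. The smallest p that 6 livers against 6 allow is 0.00216. After quantile normalization of the deposited table g was -0.41, and after centring each array on its median it was 1.20. Quantile normalization left 1167 probe sets constant over the livers, those of Gckr and Khk among them, which limits the values read after it.

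The dimmer Pklr probe set gave a smaller difference. At a level of 8.15 and an SD of 6.09e-05, maple syrup livers had -0.58, 0.18 and 1.81 SDs and sugar mix livers -1.59, -0.49 and 1.21 SDs. Maple syrup was higher in 25 of 36 pairs, with g of 0.58 (-0.51 to 1.64, exact permutation p = 0.301). Quantile normalization gave 0.95 here, so the probe sets of Pklr then lay on opposite sides of 0. Both probe sets ranked the 12 livers alike, with Pearson's r of 0.91 (permutation p = 5.0e-05) and Spearman's rho of 0.82 (permutation p = 0.00176), and with r of 0.79 without the 2 livers farthest from the median. Within diets r was 0.91 in maple syrup livers and 0.96 in sugar mix livers. Over the 4525 genes with 2 or more probe sets the median r was 0.36, and 3.54% had an r at or above that of Pklr. The order of the livers by Pklr thus did not rest on 1 probe set.

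Mlxipl (chr12:27178158-27213675) had a level of 8.88 and an SD of 1.22e-05. Maple syrup livers had -0.86, 0.17 and 1.37 SDs and sugar mix livers -1.63, -0.32 and 0.89 SDs. The livers of both diets were mixed along the range. Maple syrup was higher in 24 of 36 pairs, with g of 0.48 (-0.60 to 1.53, exact permutation p = 0.381), and g was -0.73 after quantile normalization.

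Among the 7 genes g was above 0 for 6 and below 0 for 1, with a median of 0.33, against a median of -0.04 and 47.1% above 0 over all genes. The genes are too few, and their intervals too wide, for this count to carry more than a description.

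**Figure D2:**
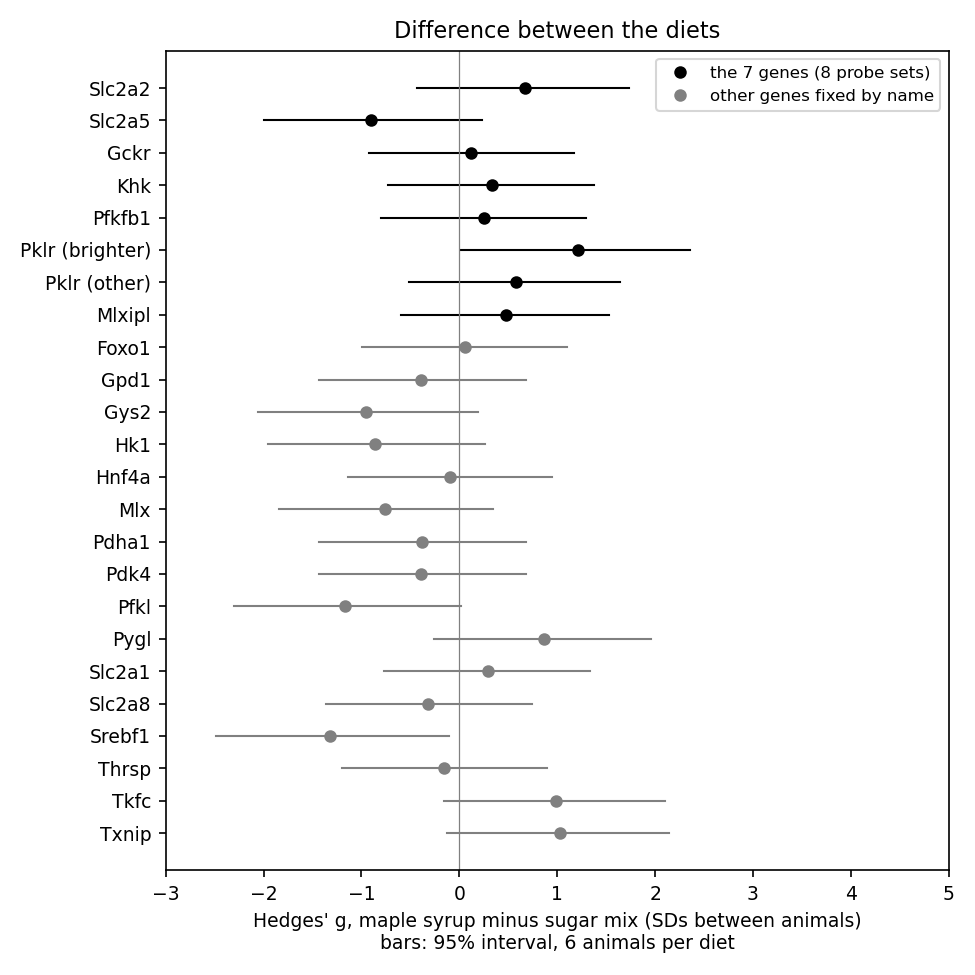
Hedges' g between the diets (maple syrup minus sugar mix, horizontal axis, in pooled SDs) for the 8 probe sets of the 7 genes and for other named genes of sugar metabolism; points are g and lines the 95% intervals, with 6 livers a diet. Of the 8 probe sets, the brighter Pklr probe set alone has an interval that leaves out 0, from 0.02 to 2.35.

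The genes around these 7 were read from 7 lists of sugar metabolism, of which 99 of 114 genes were measured. Of the 99, 0 passed the adjusted test and 5 had an unadjusted p under 0.05, with g above 0 in 44 and below 0 in 55. These shares lie near those of the whole table, where 4.19% of probe sets had an unadjusted p under 0.05 and 47.1% of genes had g above 0. Glycolysis enzymes had g above 0 in 6 and below 0 in 15 of 21 measured genes, with a median of -0.32, and of 0.14 after centring each array on its median. Pfkl, the liver subunit of phosphofructokinase, had g of -1.17 (-2.30 to 0.02), with maple syrup higher in 4 of 36 pairs. Hk1, a hexokinase of most tissues other than hepatocytes, had g of -0.86. Pklr and Pfkl, near the end and the start of the same pathway, thus lay at opposite sides of 0, and neither passed the adjusted test.

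The fructose and polyol list had g above 0 in 3 of 7 measured genes and a median near 0 (-0.0017). Tkfc, the triokinase that acts after Khk in fructose breakdown, had g of 0.99 (-0.16 to 2.10), with maple syrup higher in 28 of 36 pairs. Sugar and lactate carriers had g above 0 in 5 of 12 genes, with a median of -0.13, and of 0.16 after that centring. Slc2a1, the widespread glucose carrier GLUT1, had 0.29 and Slc2a8, an intracellular carrier, -0.32.

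ChREBP partners and targets had g above 0 in 7 of 18 genes, with a median of -0.16. Txnip, a glucose-induced inhibitor of thioredoxin, had g of 1.03 (-0.13 to 2.14), with maple syrup higher in 30 of 36 pairs. Mlx, the partner of ChREBP, had -0.76, the lipogenic gene Thrsp -0.16 and the glycerol phosphate dehydrogenase gene Gpd1 -0.39. Targets of the factor therefore lay on both sides of 0. Of the genes of pyruvate entry into mitochondria, 4 of 13 had g above 0 (median -0.16, and 0.14 after array median centring), and both Pdk4, a kinase that shuts pyruvate dehydrogenase during fasting, and Pdha1, a subunit of that enzyme, had -0.39.

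Glycogen and pentose phosphate genes had g above 0 in 13 of 17 (median 0.25), with Pygl, the liver glycogen phosphorylase, at 0.87 and Gys2, the liver glycogen synthase, at -0.95. Liver transcription factors had g above 0 in 7 of 13 (median 0.06). Srebf1, which encodes a factor that drives lipid synthesis and responds to insulin, had g of -1.32 (-2.49 to -0.11), with maple syrup higher in 5 of 36 pairs, an unadjusted limma p of 0.0268 and an adjusted p of 0.9998. Hnf4a had -0.10 and Foxo1, active in the fasted liver, 0.06.

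Over the 12 livers the 7 genes showed no relation that passed the test in the table as deposited. After centring each array on its median, 2 pairs passed, Khk and Mlxipl with r of 0.95 (adjusted permutation p = 0.00945) and Gckr and Khk with 0.83 (adjusted permutation p = 0.0188), and Gckr and Mlxipl had 0.68. Centring adds a shared shift to all genes of an array, and the array medians differed by up to 1.3e-04. The SDs were 2.63e-05 for Gckr, 1.68e-06 for Khk and 1.22e-05 for Mlxipl. The part of that shift in these relations was not tested. In the deposited values, of the 21 pairs of the 7 genes, 0 had an r of 0.6 or more in size. Over all pairs of genes it was 5.46%. Of the 21 pairs 14 were positive and 7 negative, with a median r of 0.06. The smallest Benjamini-Hochberg adjusted permutation p over the 21 pairs was 0.816 for r and 0.789 for rho. In 18 of 21 pairs r was between -0.3 and 0.3. In 10 of 21 pairs r had the same sign within both diets.

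**Figure D3:**
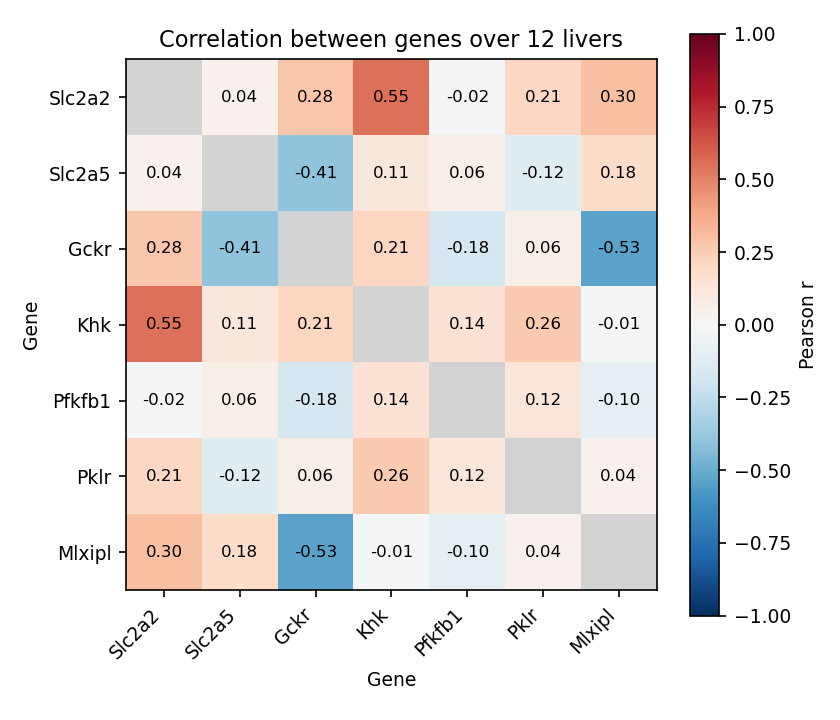
Pearson's r between the 7 genes over the 12 livers, with the brighter probe set of Pklr; colour and printed value give r. Values off the diagonal run from -0.53 to 0.55.

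The highest r was between the glucose carrier Slc2a2 and the fructose kinase Khk, at 0.55 (permutation p = 0.0623) with rho of 0.62 (permutation p = 0.038). It was 0.53 without the 2 livers farthest from the Slc2a2 median, 0.54 in maple syrup livers and 0.50 in sugar mix livers. The lowest was between Gckr and Mlxipl, at -0.53 (permutation p = 0.078) with rho of -0.36, and it was -0.23 without the 2 farthest livers. Within diets that pair gave -0.28 in maple syrup livers and -0.81 in sugar mix livers. Slc2a5 and Gckr had r of -0.41, and 0.11 without sugar mix replicates 1 and 2. None of these pairs passed the adjustment over 21.

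Pklr and Mlxipl, a classic target and its activator, had r of 0.04 (permutation p = 0.896) and rho of 0.21 (permutation p = 0.515), with r of 0.47 without the 2 livers farthest from the Pklr median, and -0.15 in maple syrup livers and -0.15 in sugar mix livers. The value depended on normalization, with r of 0.79 after quantile normalization (permutation p = 0.0254, adjusted 0.254) and 0.31 after array median centring (permutation p = 0.335). The first is limited by the 1167 probe sets that quantile normalization left constant. The smallest adjusted p of this pair over 7 alternatives was 0.254. ChREBP is also controlled at the level of its protein, which the arrays do not measure, and by an internal promoter. Transcripts of the Mlxipl promoters were not told apart here, and the part of either control in these values was not tested. The carriers Slc2a2 and Slc2a5 had r of 0.04.

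Each of the 7 genes was then set against the 99 measured genes of the 7 lists, in 693 relations. Of these, 49 (7.07%) had an r of 0.6 or more in size, against 5.46% of all pairs of genes. Without the 2 livers farthest from the member's median, 15 of the 49 were still at 0.6 or more. The relations named next were picked for their size, so they are a description over 12 livers and have no p.

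Pklr went with Tkfc, the triokinase of fructose breakdown, at r of 0.83 and rho of 0.72. It was 0.63 without maple syrup replicate 4 and sugar mix replicate 2, 0.81 in maple syrup livers and 0.94 in sugar mix livers. Acaca, the acetyl-CoA carboxylase of fatty acid synthesis, had r of 0.64 with Pklr and Adpgk, an ADP-dependent sugar kinase, -0.77. The lists that hold Tkfc and Acaca did not follow Pklr as a whole. Of the fructose and polyol list 3 genes had r above 0 with Pklr and 4 below, with a median of -0.15. Of the ChREBP list 8 were above 0 and 10 below, with a median of -0.08, and Acly was at -0.37. In all 7 of 99 list genes (7.07%) were at 0.6 or more in size with Pklr, 4 positive and 3 negative. Over all genes 2.49% were at 0.6 or more and 2.83% at -0.6 or less. The 7.07% counts both signs and is to be read beside these 2 shares together, which it exceeds by little.

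Markers of Kupffer cells, the resident macrophages of liver, ran against Pklr. All 8 of 8 measured markers had r below 0 with Pklr, with a median of -0.57, and 4 were at -0.6 or less, with C1qb at -0.82, C1qa at -0.73, Cd68 at -0.69 and Csf1r at -0.65. Over all genes 2.83% had r of -0.6 or less with Pklr, and the share below 0 is not given here. This list was picked among the marker lists after its values were seen. Other markers reached values as large. Among 9 hepatocyte markers, 4 above and 5 below 0 with Slc2a2, Serpina1 had -0.84, Apoa1 -0.74 and Alb 0.68. Without maple syrup replicate 4 and sugar mix replicate 2, r was -0.67 for C1qb, -0.51 for C1qa, -0.31 for Cd68 and -0.25 for Csf1r. Within sugar mix livers Csf1r had r of 0.0067 with Pklr. A negative sign was not particular to Pklr. All 8 markers also had r below 0 with Gckr (median -0.29) and Khk (median -0.34), and 7 of 8 with Slc2a2 (median -0.35). For Slc2a5, Pfkfb1 and Mlxipl the medians were 0.03, 0.04 and 0.05. The summed level of the markers, as the mean of standardised values, ran from -1.51 to 0.66 in maple syrup livers (median -0.09). In sugar mix livers it ran from -0.19 to 0.95 (median 0.12). Their g was below 0 in 7 of 8, with Clec4f, a receptor of Kupffer cells, the other at 0.43. The median level of the list was 9.94. Their part in the Pklr values was not tested.

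**Figure D4:**
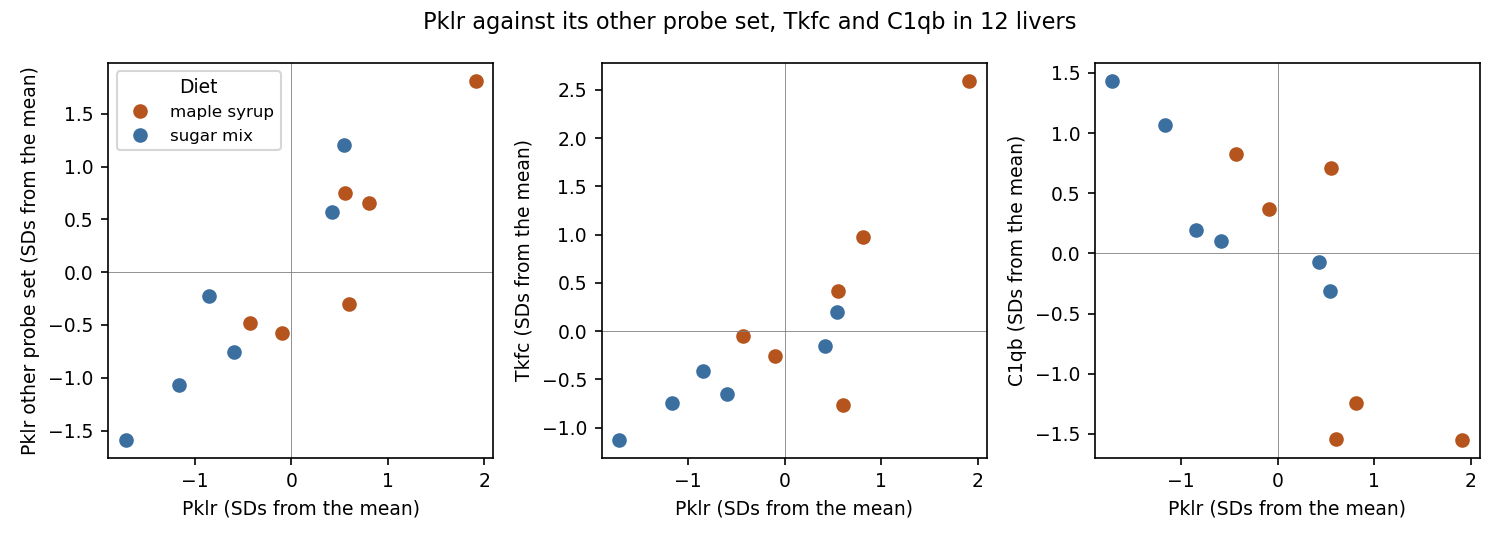
Each liver's Pklr level on the brighter probe set (horizontal axis) against its other probe set, Tkfc and C1qb (vertical axes of the panels from left to right), all in SDs from the mean over the 12 livers; points are livers, coloured by diet. The other Pklr probe set and Tkfc are higher and C1qb lower in livers with more Pklr, with r of 0.91, 0.83 and -0.82.

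Slc2a5 had the most relations with the lists, 15 of 99 (15.2%), of which 11 were positive and 4 negative. Over all genes 5.38% had r of 0.6 or more with Slc2a5 and 2.74% -0.6 or less. The highest of them are named here. Elovl6, a fatty acid elongase, had 0.79, the fatty acid synthase gene Fasn 0.75 and the ATP citrate lyase gene Acly 0.73. Other lipogenic genes of the same list had lower values, with Acaca at -0.11, Scd at -0.34 and Thrsp at 0.01. The glycolysis genes Pfkl, Aldoa and Pgk1 had 0.74, 0.71 and 0.68.

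These relations rested largely on sugar mix replicates 1 and 2, the livers with the most Slc2a5. The same livers also had the highest mean of standardised values over all genes, at 0.13 each, and the next highest liver had 0.017. The part of that shared movement in the relations was not tested. Without sugar mix replicates 1 and 2, 2 of the 15 relations were at 0.6 or more in size. Then r was 0.46 for Elovl6, 0.32 for Fasn, 0.36 for Pfkl and -0.08 for Pgk1. The 2 that stayed were Srebf1, at 0.77 over 12 livers and 0.61 without those 2, and Usf1, a factor that binds E-boxes, at -0.74 and -0.69. In maple syrup livers r with Srebf1 was 0.56 and in sugar mix livers 0.73. The relation with Srebf1 thus kept its sign in both diets and without the highest pair of animals. That was not particular to Srebf1, and without that pair 1 of the 15 relations turned its sign. The pentose phosphate gene Rpe had r of 0.94 in maple syrup livers and 0.75 in sugar mix livers. Others changed sign between the diets, such as Acly, at -0.11 in maple syrup livers and 0.74 in sugar mix livers.

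**Figure D5:**
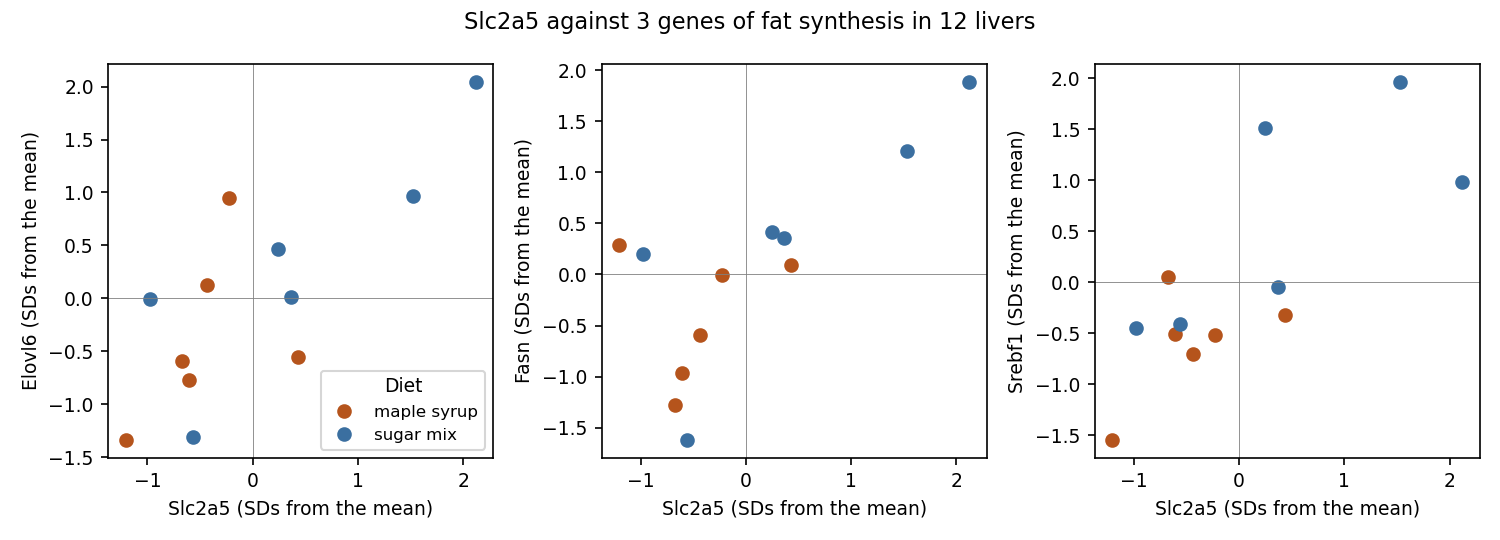
Each liver's Slc2a5 level (horizontal axis) against Elovl6, Fasn and Srebf1 (vertical axes of the panels from left to right), all in SDs from the mean over the 12 livers; points are livers, coloured by diet. Sugar mix replicates 1 and 2 lie at the far right, and without them r is 0.46 for Elovl6, 0.32 for Fasn and 0.61 for Srebf1.

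For the other genes the relations at 0.6 or more were fewer. Khk had 4 of 99, among them Hnf4a, a master factor of hepatocyte genes, at -0.77, and -0.77 without the 2 farthest livers, and the glycogen branching enzyme Gbe1 at 0.74. Over all genes 2.38% had r of 0.6 or more with Khk and 2.09% -0.6 or less. Pfkfb1 had 7, among them Ppp1r3b, a glycogen-targeting subunit of protein phosphatase, at 0.74 (0.76 without 2 livers), and Foxo1 at 0.61 (0.60), beside 3.24% and 3.34% of all genes. Gckr had 5, of which 2 were positive and 3 negative, beside 1.81% and 2.94% of all genes. Among the 5, the ChREBP target Arrdc4 was at 0.70 (0.77) and Elovl6 of the same list at -0.64 (-0.06). Over the 18 genes of that list r with Gckr was above 0 in 9 and below 0 in 9, with a median of -0.006. Slc2a2 had 5, with Hk1 at -0.74 (-0.52), beside 2.6% and 2.03% of all genes. In each such pair of shares the first counts r of 0.6 or more and the second r of -0.6 or less. The counts hold both signs, and were 4.04% of the 99 for Khk, 7.07% for Pfkfb1, 5.05% for Gckr and 5.05% for Slc2a2. Each was near its 2 shares over all genes together, so these counts do not set the lists apart from other genes.

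Mlxipl had 6, all positive, among them the glycogenin gene Gyg1 and the pentose phosphate gene Rpia at 0.74, the kinase Pdk3 at 0.70, the lipase gene Pnpla3 at 0.65 and Nr1h3, which encodes a sterol-sensing receptor, at 0.63. Over all genes 3.64% had r of 0.6 or more with Mlxipl and 2.22% -0.6 or less. The 6 are 6.06% of the 99 list genes, near these 2 shares together. Mlxipl also followed the mean of all genes, a standardised mean over 14217 genes in each liver. Its r with that mean was 0.73 (permutation p = 0.00596, adjusted over the 7 genes 0.0417) and its rho 0.83 (permutation p = 0.00148, adjusted 0.0104). The r was 0.78 without sugar mix replicates 1 and 2, the livers farthest from the median of that mean. It was 0.90 in maple syrup livers and 0.90 in sugar mix livers. Over all genes 1.32% had an r with that mean at or above that of Mlxipl, and 9.39% had one of 0.6 or more in size. The relations of Mlxipl with single genes are to be read beside that shared movement, whose part was not tested. Slc2a5 had r of 0.60 with that mean and -0.43 without sugar mix replicates 1 and 2, and for the other 5 genes it was between -0.51 and 0.20.

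The genes most like each of the 7 over the 12 livers were mostly not genes of sugar metabolism. By Pearson's r over 14216 other genes, the nearest to Slc2a2 were Mtfr1 at 0.91, Wee1 at 0.89 and Gpn2 at 0.87, and to Slc2a5 Gtf2f1, Fkbpl and Ubl7, each at 0.92. Nearest to Gckr were Rsad2 at 0.91, Dnah1 at 0.87 and Prkrip1 at 0.85, and to Khk Cd3g at 0.91, Usp25 at 0.88 and Ppfia2 at 0.87. Among 14216 genes, values near 0.9 were the top for each gene.

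Pfkfb1 was nearest to Edem1 at 0.94, which takes part in the disposal of misfolded proteins, to Adgrf5 at 0.91 and to Gpt2, an alanine aminotransferase that links pyruvate to amino acids, at 0.89. Pklr was nearest to Hmga2 at 0.87, Commd10 at 0.85 and Asmtl at 0.85, and Mlxipl to Zscan12 at 0.92, Prex1 at 0.88 and Bdkrb1 at 0.87. Dnah1, Ppfia2, Prex1, Bdkrb1, Cd3g and Hmga2 had levels below the median of the table, 7.37.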

How the data were processed

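Liver RNA (2 ug) was made into biotin-labelled cRNA for 12 Affymetrix arrays, 6 a diet, per the labels' protocols. The authors deposited 1 score for each of 31099 probe sets and array, with no missing value. How it was summarized and normalized is not given in the sources used here. No depth applies, and the number of arrays limits the precision. Leaving out 57 control probe sets, 20826 had 1 symbol in the platform annotation, 436 had several and 9780 are unnamed here.

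The diets were tested in limma 3.58.1 under R 4.3.3, by lmFit and trended eBayes, two-sided, with Benjamini-Hochberg adjustment over 20826 probe sets. Variances were pulled only weakly toward the trend (prior degrees of freedom 0.68). The 95% interval of Hedges' g used the noncentral t, and exact tests used all arrangements of the livers. Correlations used 100000 permutations. In relations over genes, the brightest probe set by its mean stood for its gene. The same limma steps were also run on simulated independent normal values with known shifts, and the outcome is not reported here.

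The members and lists were chosen with earlier results of these data known. Named genes were the 7 members, fixed genes of the lists, of which some are not reported here, and the 3 genes most correlated with each member. Partners, macrophage markers, genes sharing the promoter element and the genes given under other observations were chosen after their values were seen. Alternatives were 2 normalizations, 2 treatments of low values, 2 sets of probe sets, 2 variance models, array weights, a replicate block and each array left out.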

Additional observations from a re-analysis of the deposited data

Results flagged for a closer look

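Of 56 groups of 6 livers examined, 2 held a liver whose gap to its neighbour was a large part of the whole range of the group (Dixon's test at 95%), and chance gives 2.8 in 56. For Gckr, maple syrup replicate 1 was at -1.80 SDs, with a gap of 0.727 of the range. For Pfkl, maple syrup replicate 1, the same liver, was at 1.06 SDs, with a gap of 0.684 of the range. The cause of neither value was tested.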

How the results depend on the processing

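The count of probe sets called between the diets was 0 under all 22 alternatives, and so were the counts over the 8 member probe sets and over the pathway lists. With each array left out the counts stayed at 0 to 0, and the smallest adjusted p was 0.213, without sugar mix replicate 1. The count at an unadjusted p of 0.05 was 873 and ran from 651 to 1148 with arrays left out, was 193 with array median centring and 1264 over all probe sets. Replicate numbers are shared by the diets, and the deviations of same-numbered livers correlated between -0.03 and 0.12, highest for replicate 1. Correlations of whole arrays cannot decide whether same-numbered livers also shared a batch, because a batch may move only some genes. A shared batch was not tested. With the replicate number as a block 0 probe sets were called and 912 had an unadjusted p under 0.05. Quantile normalization turned g to -0.41 for the brighter Pklr probe set and to -0.73 for Mlxipl, and left Gckr and Khk, constant after it, with no value. With arrays left out g ran from -0.26 to 0.54 for Gckr (-0.02 without maple syrup replicate 3), from -0.14 to 0.52 for Pfkfb1 from 0.08 to 0.98 for Khk, from 0.44 to 0.99 for Slc2a2, from -1.33 to -0.69 for Slc2a5, from 0.24 to 0.71 for Mlxipl and from 1.02 to 1.52 for the brighter Pklr probe set. The median g of the glycolysis list was 0.14 with array median centring and from -0.45 to -0.16 with arrays left out, and that of the carriers 0.16 and from -0.23 to 0.01. The r of Pklr and Mlxipl was -0.15 from the diet means, -0.15 in maple syrup livers, -0.15 in sugar mix livers and -0.11 with the other Pklr probe set, but 0.79 after quantile normalization and 0.31 with array median centring. The r of Slc2a2 and Slc2a5 was -0.024 after quantile normalization, and that of Slc2a5 and Gckr 0.11 without the 2 farthest livers. With array median centring, 2 of the 21 pairs passed, against 0 without it (Gckr and Khk at 0.83, Khk and Mlxipl at 0.95), and r was 0.68 for Gckr and Mlxipl and 0.23 for Slc2a5 and Gckr. Array medians had a range of 1.3e-04, and centring adds a shared shift to all genes of an array. The part of that shift in these values and the cause of the reversals were not tested.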

Other observations

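Genes of glycogen handling held the largest positive values of the lists, named here after they were seen. Pgm1, the phosphoglucomutase that links glycogen to glycolysis, had g of 1.60 (0.32 to 2.82), with maple syrup higher in 33 of 36 pairs, and Gbe1, the glycogen branching enzyme, 1.39 (0.16 to 2.57), with 30 of 36. The malic enzyme gene Me1, which supplies reducing power for lipid synthesis, had 1.32 (0.11 to 2.49), with 31 of 36. Each had an adjusted limma p of 0.9998, and 4.19% of all probe sets passed at an unadjusted p of 0.05.

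Si encodes sucrase-isomaltase, the intestinal enzyme that splits sucrose, and its probe set in these livers stood at 5.86, near the bottom of the table at 5.57. It was lower in every maple syrup liver than in every sugar mix liver, from -2.06 to 0.12 SDs in maple syrup livers and from 0.43 to 1.42 SDs in sugar mix livers. Its g was -2.26 (-3.66 to -0.80) and its exact permutation p 0.00216, the smallest possible, with an adjusted limma p of 0.9998. Without overlap of the diets it is among 19 of 20826 probe sets (0.0912%). Any probe set without overlap has the same exact permutation p with 6 livers against 6. A share of 0.00216 of all arrangements of the livers leaves no overlap, which is more than that 0.0912%. Si was named after its values were seen.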
